A study of Mus musculus with 6 samples.

Results

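Interferon-stimulated genes with antiviral functions were examined in bone marrow-derived macrophages from wild-type (WT) C57BL/6 mice and from C57BL/6 mice without Cd226 (Cd226-/-), the gene of an activating receptor of lymphocytes and myeloid cells. The set was a list of 34 gene symbols, drawn up by name and antiviral role by someone who knew earlier results of these data, with IRF and STAT genes and guanylate-binding proteins left out. All 34 matched a row among the 46095 genes of the count table, and all 34 were among the 13215 genes that passed the filter on low counts. The mice were 56 days old in both groups. Macrophages were derived from marrow over 7 days with 20 ng/ml M-CSF, a macrophage growth factor, and then received IFN-γ at 20 ng/ml together with LPS at 100 ng/ml for 24 h, a stimulus that yields M1-type macrophages. Each genotype had 3 libraries, named replicates 1 to 3, and all 6 came from stimulated cells. Induction of these genes by the stimulus was therefore not measured, and every comparison below is between genotypes after the same stimulus. The labels do not say which part of Cd226 is missing, nor whether replicates came from different mice or wells. The p-values therefore reflect the spread among these libraries alone, which may be technical.

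Interferon-stimulated genes form the effector arm of interferon signalling. Type I interferons act through the receptor chains IFNAR1 and IFNAR2 and the kinases JAK1 and TYK2, and a complex that includes STAT2 and IRF9 binds the interferon-stimulated response element (ISRE). IFN-γ acts through JAK1 and JAK2 on promoters that hold a gamma-activated site (GAS). LPS adds interferon-β production through TLR4, so that macrophages given IFN-γ and LPS receive several of these inputs. The encoded proteins detect viral nucleic acid, degrade RNA, block translation, deplete nucleotides or hold virus particles at the cell surface.

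Promoter sequences are shown for 6 members because they carry the contrasts described below: 4 genes that rose in Cd226-/- macrophages (Isg15, Bst2, Isg20 and Oas1g) and 2 relatives or classical targets that did not pass the test (Oas1a and Ifit1). Each line gives the 150 bases directly before the RefSeq start site, 5′ to 3′ on the gene's strand, build GRCm38.p6. Capitals mark matches to an ISRE core, GAAA followed by any 2 bases and GAAA again, on either strand or, for Isg20, to the GAS core TTCNNNGAA, which reads the same on both strands.
Isg15 (chr4:156200819-156200968, minus strand): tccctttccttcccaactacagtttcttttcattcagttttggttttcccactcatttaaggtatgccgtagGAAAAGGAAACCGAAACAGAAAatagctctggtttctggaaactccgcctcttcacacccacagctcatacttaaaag
Bst2 (chr8:71537473-71537622, minus strand): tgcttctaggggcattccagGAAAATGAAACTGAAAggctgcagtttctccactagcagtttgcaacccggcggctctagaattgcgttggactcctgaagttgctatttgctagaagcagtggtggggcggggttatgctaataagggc
Isg20 (chr7:78913274-78913423, plus strand): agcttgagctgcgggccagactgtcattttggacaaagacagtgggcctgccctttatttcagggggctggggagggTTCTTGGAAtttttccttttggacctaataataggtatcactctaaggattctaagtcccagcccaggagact
Oas1g (chr5:120887614-120887763, minus strand): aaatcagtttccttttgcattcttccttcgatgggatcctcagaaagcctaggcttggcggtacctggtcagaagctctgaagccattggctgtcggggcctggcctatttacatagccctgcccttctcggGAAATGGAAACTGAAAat
Oas1a (chr5:120907526-120907675, minus strand): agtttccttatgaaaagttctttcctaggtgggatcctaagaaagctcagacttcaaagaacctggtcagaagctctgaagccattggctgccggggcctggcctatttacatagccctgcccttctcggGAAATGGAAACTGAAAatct
Ifit1 (chr19:34640739-34640888, plus strand): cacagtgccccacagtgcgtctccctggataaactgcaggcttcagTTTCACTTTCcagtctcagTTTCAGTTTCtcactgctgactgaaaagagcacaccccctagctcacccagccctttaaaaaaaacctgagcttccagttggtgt

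In Isg15 the matches overlap into 1 run of 22 bases from -78 to -57, counted from the start site as base 1 with no base 0. The run of Bst2 spans -130 to -115, and a GAS match from -136 to -128 overlaps it. Oas1g and Oas1a carry the identical run of 16 bases, at -18 to -3 and at -20 to -5. Oas1a also has a GAS match at -98 to -90, and Oas1g has none in its window. Ifit1 has 2 separate matches, read on the opposite strand, at -104 to -95 and -85 to -76. Isg20 has 3 RefSeq promoters, and the promoter shown was chosen because it holds a GAS match, at -73 to -65. Its other promoters held no GAS match, and the ISRE letters were in none of them. Over windows of 300 bases (250 before and 50 after each start), RefSeq promoters were given for 25 of the 34 members, and 13 of the 25 held the ISRE core in at least 1 promoter, against 3.99% of 27025 genes. The GAS core was present in 8 of the 25, against 9.55% of all genes. The ISRE core was found in 4 of the 8 matched members that rose and in 9 of the 17 matched members that did not pass. Mx1, Mx2, Oas2, Usp18, Dhx58, Zbp1, Ifi204, Rtp4 and Parp14 had no entry.

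Total counts ranged from 16838527 to 21658061 in WT and from 16925955 to 18867799 in Cd226-/-. Levels are given in CPM, read counts scaled to a common library size after TMM normalisation, with SD over the 3 libraries. Members held between 216 and 34602 counts in a library and together took 1.29% to 1.39% of the counts in WT and 1.32% to 1.36% in Cd226-/-. The targeted gene Cd226 gave 5, 17 and 23 counts in the WT libraries and 11, 10 and 8 in the others, too few to check the genotype labels. All 10 macrophage markers listed were detected (summed 18262 to 20227 CPM in WT and 19530 to 20303 CPM in Cd226-/-), among which 4 rose and 4 fell. Markers of other cell types also differed. Of the 7 B-cell markers 6 rose, by 1.89-fold (Fcmr) to 3.99-fold (Ms4a1, with 26 to 50 counts in a WT library and 135 to 163 in a Cd226-/- library). Blnk fell in edgeR (WT 87.2 ± 4.11 CPM, Cd226-/- 78.5 ± 1.03 CPM (SD, n = 3), log2 fold change -0.15, adjusted p = 0.0422). No B-cell marker was lower with DESeq2 or limma-voom. Blnk made up most of the list's sum of 98.1 to 106 CPM in WT and 110.1 to 121 CPM in Cd226-/-. Monocyte markers rose in 3 of 5 cases (110.2 to 116 CPM summed in WT, 300.0 to 329 in Cd226-/-), and Chil3 and Cx3cr1 did not pass. Most of the rise in that sum was Ly6c2 (WT 30.2 ± 0.745 CPM, Cd226-/- 205 ± 12.2 CPM (SD, n = 3)). Stromal markers rose in 4 of the 5 tested (489 to 566 CPM and 756 to 784 CPM). Of the plasmacytoid dendritic cell markers, 3 of the 4 tested rose (246 to 278 CPM and 390 to 429 CPM summed, mostly Irf8, which macrophages also express), while Klk1 had 0 counts in all libraries and the defining marker Siglech had 1 count in all 6 libraries together. Cox6a2, also not tested, had 0 to 5 counts in a WT library and 9 to 12 in a Cd226-/- library. Plasma cell markers rose in 3 of 4 tested cases (345 to 357 CPM summed in WT and 362 to 430 CPM in Cd226-/-, mostly Sdc1 and Xbp1), with Tnfrsf17 at 0 in all WT libraries. Of the conventional dendritic cell markers 1 of 4 tested rose, and their sums stayed between 7.25 and 11.2 CPM. T and NK cell markers and neutrophil markers summed to 6.65 to 8.93 CPM and 49.4 to 64.5 CPM, and none of the 6 and 2 tested passed in edgeR, DESeq2 or limma-voom (2 T and NK cell genes higher and 1 lower, and no neutrophil gene, at an unadjusted p under 0.05). In bulk RNA, more cells of a type and more RNA per cell cannot be told apart, and the part of such cells in the values below was not tested.

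The question the design poses for these genes is whether macrophages lacking Cd226 differ from WT in the antiviral programme after the M1 stimulus. Of the 34 members, 10 were higher and 1 was lower in Cd226-/- at an adjusted p under 0.05 (edgeR's quasi-likelihood test, Benjamini-Hochberg adjustment over all 13215 genes), and 23 did not pass. The rises were those of Isg20, Isg15, Bst2, Oas1g, Trim30a, Ifi35, Zbp1, Ifi44, Xaf1 and Ifi204, and the fall that of Parp14. Members called in either direction made up 32.4%, close to the 30.9% of all tested genes that were called. By direction, 29.4% of the members rose, beside 16.1% of all tested genes, and 2.94% fell, beside 14.8%. All members were fairly abundant. Among the 7633 tested genes at or above the mean of the least abundant member (12.5 CPM, Ifit3b), 38.3% were called, 19.3% higher and 19% lower. The median log2 fold change (Cd226-/- over WT) was 0.072 over the members and -0.0045 over all tested genes, and 25 of the 34 members had a positive value. Changes were modest in size, and Isg20 was the 1 member that changed at least 2-fold.

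Without overlap between genotypes, 14 members had all 3 Cd226-/- values above all 3 WT values and 4 had them all below (41.2% and 11.8%). Over all tested genes these shares were 22.1% and 22.3%, together 44.3%. The remaining 16 members overlapped. Among those that did not, the gap was wide for Isg20, Isg15 and Bst2 and narrow for genes such as Usp18, Oas3 and Ifih1.

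**Figure D1:**
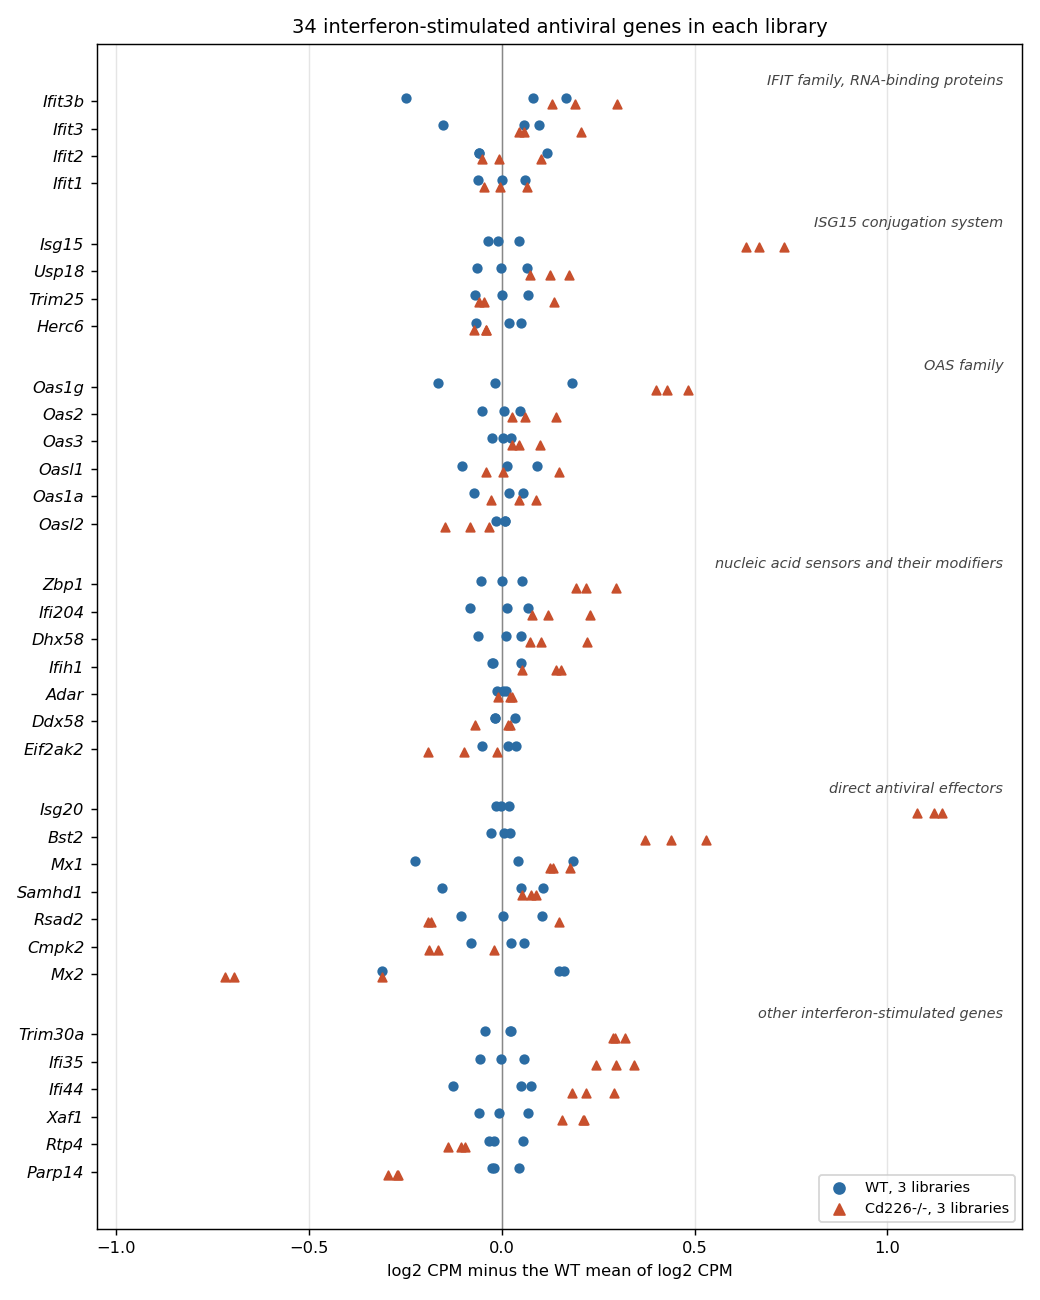
Level of each of the 34 genes in each library, as log2 CPM minus the WT mean of log2 CPM (horizontal axis), grouped by role and ordered by fold change. Circles are the 3 WT and triangles the 3 Cd226-/- libraries. In 14 rows all triangles lie to the right of all circles and in 4 rows all lie to the left.

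Among the direct antiviral effectors, Isg20 and Bst2 rose and the other 5 did not pass. Isg20, an exonuclease that degrades single-stranded RNA, had 22.1, 21.6 and 21.8 CPM in WT replicates 1 to 3 and 46.1, 47.5 and 48.2 CPM in Cd226-/-. The 2 genotypes were far apart and the replicates close together. The difference was 2.16-fold (log2 fold change 1.11 ± 0.073 (SE), adjusted p = 1.63e-10), the largest among the members. Isg20 shared no stretch of 50 bases with the transcripts of another gene in GENCODE M21.

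Bst2 encodes tetherin, which holds budding virus particles at the cell surface. Its level was 445, 441 and 431 CPM in WT and 633, 595 and 568 CPM in Cd226-/-, without overlap. It rose 1.36-fold (log2 fold change 0.45 ± 0.051 (SE), adjusted p = 5.87e-07). Bst2 is also carried by plasmacytoid dendritic cells. Of the markers listed for them Ly6d, Irf8 and Tcf4 rose 2.54-fold, 1.55-fold and 1.37-fold, Ccr9 did not pass, and Siglech and Klk1 were at or near 0. The part of such cells in the Bst2 level was not tested.

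Mx2 had the lowest log2 fold change of all members and did not pass. Mx1 and Mx2 encode dynamin-like GTPases, and laboratory strains such as C57BL/6 carry defective copies. Mx2 had 115, 83.8 and 116 CPM in WT and 83.8, 64.2 and 63.2 CPM in Cd226-/-, so that WT replicate 2 and Cd226-/- replicate 1 had about the same level. The log2 fold change was -0.58 ± 0.19 (SE) with adjusted p = 0.0917. It passed with DESeq2's Wald test (log2 fold change -0.57, adjusted p = 0.0188), with the replicate number as a block (-0.58, adjusted p = 5.50e-05) and without WT replicate 2 (-0.72, adjusted p = 0.00370). Over all 15 alternatives its adjusted p lay between 5.50e-05 and 0.582. Mx1 had 272, 205 and 247 CPM in WT and 271, 263 and 261 CPM in Cd226-/- (log2 fold change 0.13, adjusted p = 0.283), and it passed without WT replicate 1 (0.23, adjusted p = 0.0296).

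Rsad2 encodes viperin, which makes a chain-terminating nucleotide, and its neighbour on chromosome 12, Cmpk2, encodes a mitochondrial nucleotide kinase. Rsad2 had 1184, 1024 and 1103 CPM in WT and 1221, 965 and 971 CPM in Cd226-/-, with Cd226-/- replicate 1 above all other libraries. Cmpk2 had 219.7, 199.6 and 215 CPM in WT and 208, 188 and 185 CPM in Cd226-/-. Neither passed (log2 fold changes -0.069 and -0.12, adjusted p = 0.634 and 0.0906). Without Cd226-/- replicate 1 both were lower (log2 fold changes -0.19 and -0.18, adjusted p = 0.00437 and 0.00397), and Cmpk2 was also lower without WT replicate 2 (adjusted p = 0.0466). Samhd1, which depletes deoxynucleotides in myeloid cells, was the most abundant effector by CPM. It had 1419, 1229.7 and 1476 CPM in WT and 1443, 1458 and 1420.1 CPM in Cd226-/-, within the WT range (log2 fold change 0.067, adjusted p = 0.416).

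In the ISG15 conjugation system the modifier rose, while the protease and ligases did not pass. Isg15 encodes a ubiquitin-like protein that is attached to newly made proteins and is also secreted. Its level was 252, 267 and 257 CPM in WT and 429, 410.2 and 401 CPM in Cd226-/-, with a clear gap between the genotypes. It rose 1.60-fold (log2 fold change 0.68 ± 0.049 (SE), adjusted p = 8.50e-10). Usp18, which removes ISG15 from proteins and dampens signalling at the type I interferon receptor, had 225, 206 and 215 CPM in WT and 243, 234 and 226 CPM in Cd226-/-. These values barely separated, and the test was not passed (log2 fold change 0.12 ± 0.051 (SE), adjusted p = 0.0685). Usp18 passed under a stricter filter at a mean of 5 CPM (adjusted p = 0.0370), with a correction for length and GC content (0.0427) and with Cd226-/- replicate 1 as the only library of its genotype (0.0389).

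Herc6, the main ISG15 ligase of mice, had 489, 451 and 478 CPM in WT and 459, 449.5 and 459 CPM in Cd226-/- (log2 fold change -0.052, adjusted p = 0.450). Trim25, a ubiquitin ligase that acts on RIG-I, had 404, 385 and 424 CPM in WT and 444, 388 and 391 CPM in Cd226-/- (log2 fold change 0.012, adjusted p = 0.899). Both overlapped between genotypes. A same-strand gene, Gm45193, covers 13.7% of the exonic bases of Herc6. Outside the member list, Uba7, the enzyme that activates ISG15 for transfer, rose 1.29-fold (WT 161 ± 5.20 CPM, Cd226-/- 208 ± 14.0 CPM (SD, n = 3), adjusted p = 1.70e-05). Ube2l6, which carries ISG15 to the ligase, had a log2 fold change of 0.043 (adjusted p = 0.524), and Arih1 one of -0.082 (adjusted p = 0.243), so neither passed.

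**Figure D2:**
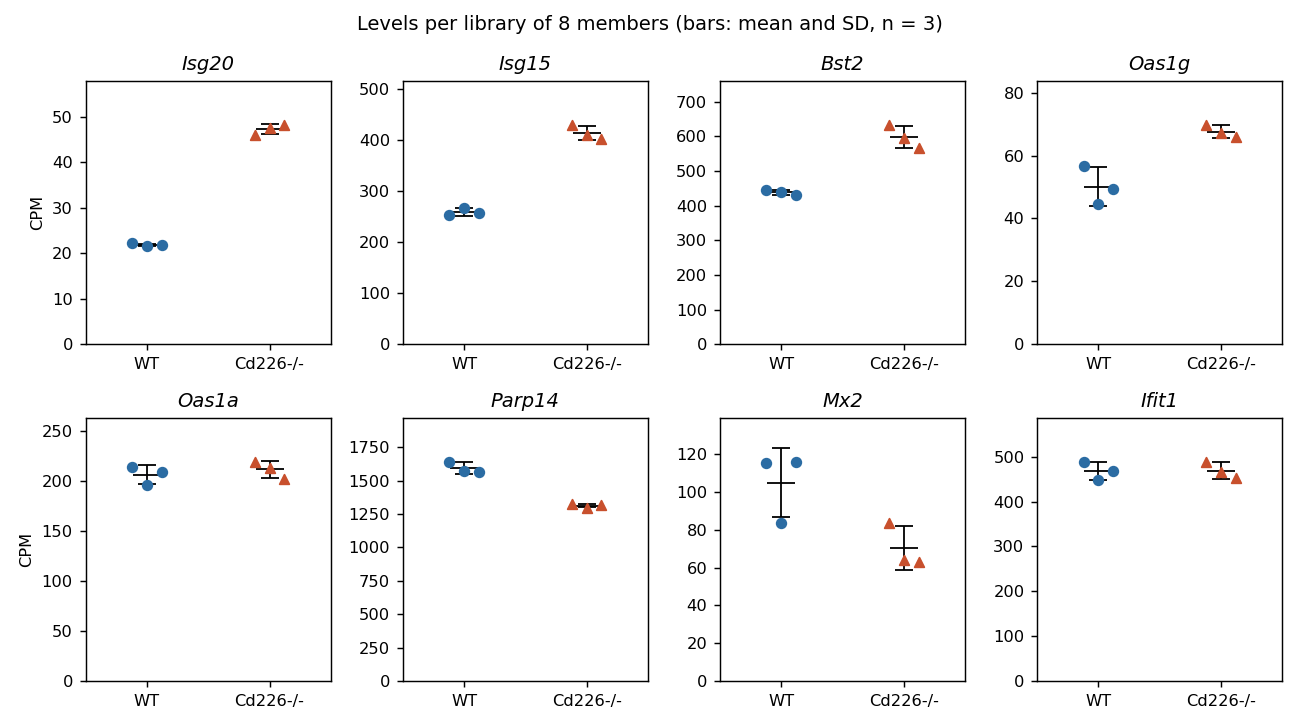
Level in CPM (vertical axes starting at 0) of 8 members in each library, with circles for WT, triangles for Cd226-/-, and bars for the mean and SD of 3 libraries. Isg20, Isg15, Bst2 and Oas1g lie higher and Parp14 lower in all 3 Cd226-/- libraries, Oas1a and Ifit1 overlap, and Mx2 nearly touches at 83.8 CPM.

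The active enzymes of the OAS family make 2′-5′ oligoadenylates, antiviral second messengers, on double-stranded RNA. Of 6 members Oas1g rose and the other 5 did not pass. Oas1g had 56.6, 44.5 and 49.3 CPM in WT and 69.8, 67.1 and 65.8 CPM in Cd226-/-, without overlap (log2 fold change 0.43 ± 0.073 (SE), adjusted p = 1.15e-04). Its close relative Oas1a had 214, 196 and 209 CPM in WT and 219, 213 and 202 CPM in Cd226-/-, and the groups overlapped (log2 fold change 0.035 ± 0.051 (SE), adjusted p = 0.640). The 2 genes lie side by side on chromosome 5 (Oas1g 120876142 to 120887613 and Oas1a 120896256 to 120907521, both on the minus strand). Over the 250 bases before the start their promoters were 82.8% identical. They also share much of their transcripts: 45.7% of the 50-base stretches of Oas1g and 57.6% of those of Oas1a occur in another gene, mostly each other. How the counting treated reads that match both is not given in the sources used here, so the share of each gene in these counts is uncertain.

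Oas1b, the neighbouring family member that is truncated in C57BL/6 and was not on the member list, fell (WT 28.1 ± 4.17 CPM, Cd226-/- 20.2 ± 0.769 CPM (SD, n = 3), log2 fold change -0.48 ± 0.10 (SE), adjusted p = 8.58e-04). Oas1c, also a neighbour, had a log2 fold change of -0.089 (adjusted p = 0.655). The remaining OAS members ranged from a log2 fold change of -0.087 for Oasl2 to 0.076 for Oas2. Oasl2 was the most abundant of them by CPM, at 762, 749.6 and 763 CPM in WT and 740.1, 716 and 685 CPM in Cd226-/-. All 3 Cd226-/- values lay below WT, without passing (adjusted p = 0.187). It passed without Cd226-/- replicate 1 (log2 fold change -0.12, adjusted p = 0.0353).

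None of the 4 IFIT genes passed in edgeR, at an unadjusted p under 0.05 or with DESeq2 or limma-voom. They encode RNA-binding proteins that block translation of foreign RNA and lie together on chromosome 19. Ifit1 had 487, 448 and 468 CPM in WT and 489, 466 and 453 CPM in Cd226-/- (log2 fold change 0.0051 ± 0.051 (SE), adjusted p = 0.951). Ifit2 had 1105, 978 and 977 CPM in WT and 1092, 982 and 1012 CPM in Cd226-/- (log2 fold change 0.012 ± 0.057 (SE), adjusted p = 0.892). The 2 genotypes covered almost the same range in both genes.

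Ifit3 (log2 fold change 0.10, adjusted p = 0.244) and Ifit3b (0.20, adjusted p = 0.225) had larger values but wider spread. Ifit3b had 12.3, 13.0 and 9.77 CPM in WT and 13.2, 14.3 and 12.7 CPM in Cd226-/-, the lowest level of any member. These neighbours share 51.2% of the 50-base stretches of Ifit3 and 45% of those of Ifit3b with other transcripts, mostly with each other, so their own levels are uncertain as well.

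Of the 7 nucleic acid sensors and their modifiers, Zbp1 and Ifi204 rose and the others did not pass. Zbp1, a sensor of Z-form nucleic acid that starts necroptosis, had 504, 486 and 468 CPM in WT and 597, 555 and 565 CPM in Cd226-/-. The genotypes did not overlap (1.18-fold, log2 fold change 0.24 ± 0.050 (SE), adjusted p = 0.00102). Ifi204, a PYHIN protein that detects DNA, had 289, 270.4 and 300.5 CPM in WT and 335, 302 and 311 CPM in Cd226-/-, nearly touching. Its call was at the threshold (log2 fold change 0.14 ± 0.053 (SE), adjusted p = 0.0487). It was lost with library size alone (adjusted p = 0.183), with no filter on low counts (0.0675) and with DESeq2's Wald test (0.0537). It was also lost without WT replicate 1 (adjusted p = 0.124), WT replicate 2 (0.221), Cd226-/- replicate 1 (0.118) or Cd226-/- replicate 3 (0.0725). Ifi204 was called in 8 of the 15 alternatives, with an adjusted p between 0.00640 and 0.221. Ifi204 shares 20% of its 50-base stretches with other genes of the PYHIN cluster, mainly Ifi211.

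The RIG-I-like helicases detect viral RNA in the cytosol. Ifih1 (MDA5) had 222, 211 and 211 CPM in WT and 223, 237 and 239 CPM in Cd226-/-, and Dhx58 (LGP2) 166, 153 and 161 CPM and 169, 187 and 172 CPM. All Cd226-/- values of both lay above WT by a small margin, and neither passed (log2 fold changes 0.12 and 0.13, adjusted p = 0.0813 and 0.0640). Without Cd226-/- replicate 1, which was the lowest of the 3 in both genes, they passed (adjusted p = 0.0121 and 0.0131), as they did under a stricter filter at 5 CPM (0.0468 and 0.0390). Ifih1 also passed with a correction for length and GC content (0.00947). Ddx58, which encodes RIG-I itself, had 208, 201 and 201 CPM in WT and 193, 206 and 205 CPM in Cd226-/- (log2 fold change -0.011, adjusted p = 0.893). Eif2ak2, the kinase PKR that halts translation, had a log2 fold change of -0.10 (adjusted p = 0.166). Adar, the RNA editing enzyme that masks self RNA, had 247, 249.9 and 251 CPM in WT and 254, 253 and 247 CPM in Cd226-/-, almost the same range (log2 fold change 0.012, adjusted p = 0.871). Adar shares 16.8% of its exonic bases with the opposite-strand gene Chrnb2, and the strand setting of the counting is not given.

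Among the remaining 6 members 4 rose and Parp14 fell. Trim30a, a tripartite motif protein that restrains Toll-like receptor signalling, had 619, 591 and 618 CPM in WT and 759.5, 747 and 744 CPM in Cd226-/-. Replicates were tight and the genotypes separate (1.23-fold, log2 fold change 0.30 ± 0.048 (SE), adjusted p = 4.67e-05). Ifi35, which binds the STAT-interacting protein NMI, had 67.1, 64.6 and 69.9 CPM in WT and 79.5, 85.2 and 82.4 CPM in Cd226-/- (1.22-fold, adjusted p = 4.32e-04). An opposite-strand gene, Gm11626, covers 16.8% of its exonic bases.

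Ifi44 had 80.5, 70.0 and 79.1 CPM in WT and 88.9, 86.7 and 93.5 CPM in Cd226-/- (1.17-fold, adjusted p = 0.00617). It was just short of the threshold without WT replicate 2 (adjusted p = 0.0510), the highest adjusted p for Ifi44 over the alternatives (lowest 0.00121). Xaf1, a pro-apoptotic partner of the inhibitor XIAP, had 161, 148 and 153 CPM in WT and 178, 171 and 178 CPM in Cd226-/- (1.14-fold, adjusted p = 0.00594). Both genes had all Cd226-/- values above WT.

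Parp14, a mono-ADP-ribosyltransferase, had the highest CPM of all members in WT. It had 1644, 1572 and 1565 CPM in WT and 1323, 1298 and 1319 CPM in Cd226-/-, all lower and with little spread (log2 fold change -0.28 ± 0.049 (SE), adjusted p = 1.32e-04). Rtp4, a receptor transport protein, had 227, 242 and 229 CPM in WT and 216, 218 and 211 CPM in Cd226-/-, also without overlap, but short of the threshold (log2 fold change -0.11, adjusted p = 0.0788). It passed without Cd226-/- replicate 1 (adjusted p = 0.0441), with library size alone (0.00737) and with the length and GC correction (0.0440). A same-strand gene, Gm45338, covers 13.9% of the exonic bases of Rtp4.

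Per length, in CPM per kilobase of combined exons, the order of levels differed from that by CPM. Bst2 (486 in WT and 663 in Cd226-/-) and Isg15 (342 and 547) were the highest members on this scale in both genotypes. They were followed by Ifit2 (259.7 and 262) and Rsad2 (255 and 243), whose levels were close to each other. Isg20 (11.7 and 25.4) and Ifi44 (12.5 and 14.6) were near the bottom, above Ifit3b (5.85 and 6.70). The members that rose lay at both ends of the range of levels.

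Log2 fold changes tended to be higher in members with a shorter combined exon length. Isg15 and Bst2 had the shortest exon sets (756 and 903 bases) and Parp14 the longest (9306 bases). Across the 34 genes Spearman's rho between log2 fold change and exon length was -0.50, and across 12440 tested genes with values it was -0.14. Genes share libraries and are not independent replicates, so these are descriptions. When each library was corrected for exon length and GC content, an alternative chosen after seeing the data, the log2 fold change of Isg15 went from 0.68 to 0.46 (adjusted p = 1.19e-06) and that of Bst2 from 0.45 to 0.27 (adjusted p = 7.19e-04), while Isg20 was at 1.06 and Parp14 at -0.23. With that correction 12 members were higher and 2 lower, and all 11 members called before were called again.

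**Figure D3:**
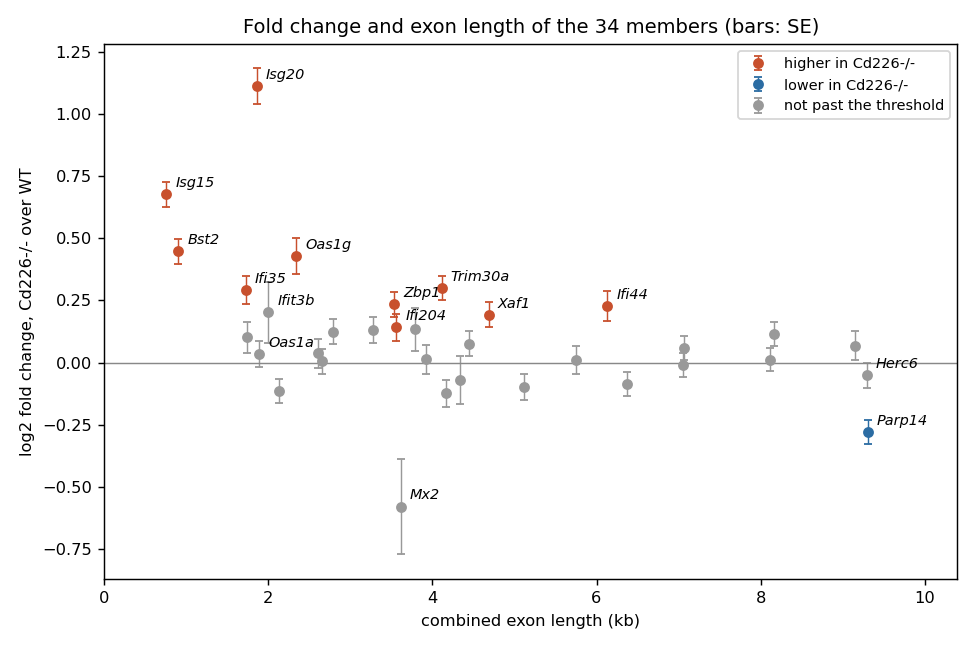
Log2 fold change (vertical axis, bars are SE) against combined exon length in kb (horizontal axis) for the 34 members, coloured by call. Isg15 and Bst2 at under 1 kb lie high, Isg20 at 1860 bases is the highest, and Parp14 at 9306 bases is the lowest gene that passed.

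Replicates of each genotype were not equally placed. WT replicate 2 was the lowest of the WT libraries in 23 of the 34 members, and Cd226-/- replicate 1 the highest of its genotype in 22. Without WT replicate 2, 8 members were higher and 3 lower and the median log2 fold change of the members went from 0.072 to 0.036. Without Cd226-/- replicate 1, 11 were higher and 5 lower and the median was 0.044. With Cd226-/- replicate 1 as the only library of its genotype, 11 were higher and 2 lower, and the median log2 fold change was 0.14. Scaling by library size alone gave 9 higher and 5 lower, the lower ones being Parp14, Oasl2, Cmpk2, Rtp4 and Eif2ak2. On that scale 39.1% of all called genes were higher, against 52.1% with TMM scaling.

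Other genes of the interferon pathway, from lists chosen by role, were set beside the members. Of 11 interferon genes 9 had 0 counts in all libraries. Ifnb1 gave 2, 0 and 5 counts in the WT libraries and 1, 2 and 2 in the others. These were too few to compare Ifnb1 RNA between the genotypes at 24 h, and earlier times and the protein were not measured. Ifng, the 1 ligand tested, did not pass (WT 10.3 ± 1.08 CPM, Cd226-/- 8.85 ± 1.61 CPM (SD, n = 3), adjusted p = 0.262), and it was lower without Cd226-/- replicate 1. Receptor and JAK kinase genes rose in 5 of the 8 tested and none fell in edgeR, DESeq2 or limma-voom, nor at an unadjusted p under 0.05. Jak2, the kinase of the IFN-γ receptor, rose 1.43-fold (WT 404 ± 4.20 CPM, Cd226-/- 579 ± 49.4 CPM (SD, n = 3), adjusted p = 3.40e-07). The type I receptor chains Ifnar2 and Ifnar1 rose 1.31-fold and 1.16-fold (adjusted p = 1.20e-06 and 0.00242), and Jak1 1.15-fold (adjusted p = 0.00404).

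Of the 10 STAT and IRF genes 5 rose and 1 fell. Irf8, a myeloid lineage factor, rose 1.55-fold (adjusted p = 4.24e-08), Stat3 1.24-fold (adjusted p = 3.51e-05) and Irf1 1.23-fold (adjusted p = 2.05e-04). Within the ISRE-binding complex, Stat2 rose 1.21-fold (WT 403 ± 12.3 CPM, Cd226-/- 487 ± 43.5 CPM (SD, n = 3), adjusted p = 9.24e-04). Irf9 fell (87.1 ± 0.827 CPM and 77.9 ± 3.44 CPM (SD, n = 3), log2 fold change -0.16, adjusted p = 0.0293). No gene of this list was lower with DESeq2 or without Cd226-/- replicate 1. Irf7, which amplifies type I interferon production, rose 1.16-fold (adjusted p = 0.00246).

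The feedback inhibitors rose in 6 of 7 cases, and Pias1 did not pass. Irf2bp2, a corepressor, rose 1.40-fold (adjusted p = 6.16e-07), the JAK inhibitor Socs3 1.39-fold (adjusted p = 1.01e-06), and the phosphatases Ptpn2 and Ptpn1 1.26-fold and 1.19-fold (adjusted p = 1.91e-04 and 4.20e-04). With Cd226-/- replicate 1 as the only library of its genotype 4 of the 7 rose. Of 10 adaptors and kinases downstream of the sensors 3 rose and 1 fell. Traf6 rose 1.22-fold (adjusted p = 0.00112), Ikbke 1.15-fold (0.00521) and Traf3 1.14-fold (0.0249).

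A longer list of 55 further interferon-stimulated genes outside the members had 28 higher and 3 lower, with a median log2 fold change of 0.17. Over the alternatives 24 to 30 were higher and 2 to 5 lower. Ms4a4c, a membrane protein gene, rose 3.57-fold (WT 85.5 ± 6.93 CPM, Cd226-/- 305 ± 8.39 CPM (SD, n = 3), adjusted p = 8.37e-16). Ifi27l2a rose 2.01-fold and Slfn4, a Schlafen family gene of myeloid cells, 1.95-fold (both adjusted p = 4.99e-12), and the PYHIN gene Ifi205 1.49-fold (adjusted p = 1.01e-07). The exon set of Ifi27l2a (463 bases) is shorter than those of Isg15 and Bst2. Its fold change with the length and GC correction is not given here. The genes that fell were Ifi27, Oas1b and Gvin1, and Ifi27 had the smallest p of them (34.7 ± 1.88 CPM and 20.3 ± 0.918 CPM (SD, n = 3), log2 fold change -0.77, adjusted p = 2.49e-07). Whether the longer list and the members differ was not tested.

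**Figure D4:**
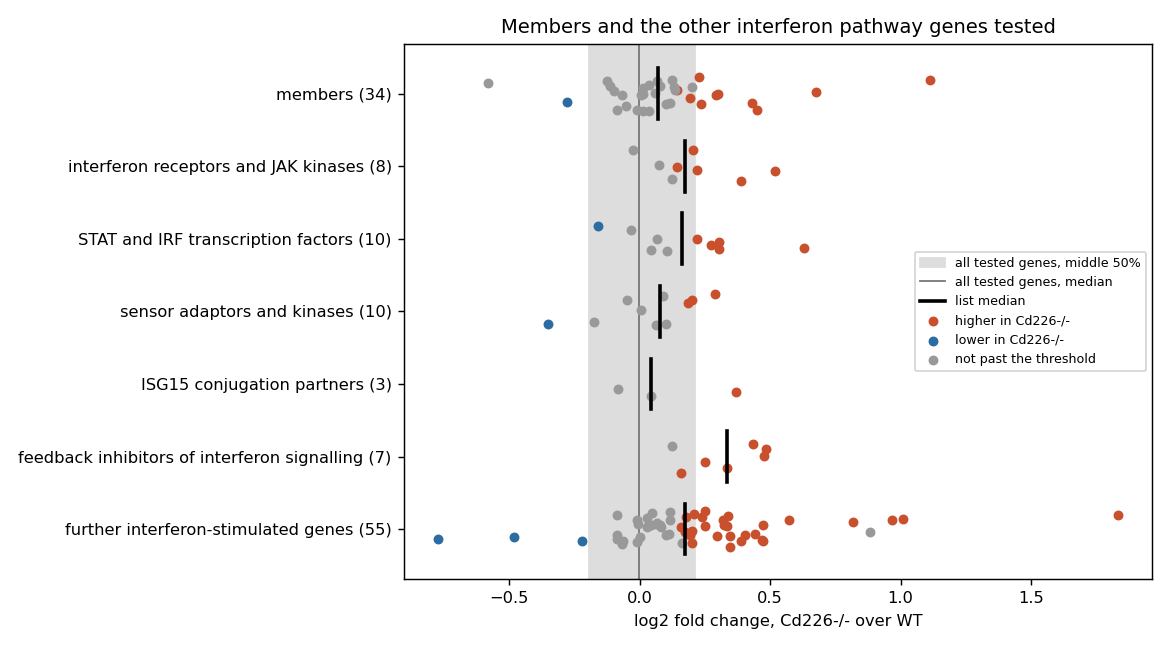
Log2 fold change of each tested gene (horizontal axis) in the member list and in 6 other lists of the interferon pathway (rows, number tested in brackets), coloured by call, with the list median as a black bar. The grey band holds the middle 50% of all tested genes. The members' median is 0.072, that of the feedback inhibitors 0.33 and that of the further interferon-stimulated genes 0.17.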

How the data were processed

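The authors deposited 1 table of raw read counts per gene symbol for 6 libraries. HISAT2 and the build GRCm38 are named in the submitters' processing notes. For the counting tool, its annotation, strand and multi-mapping reads, settings were not given in the sources used here. Each column was assigned by its name, and 0 per-sample columns were left unused. The count test was edgeR 4.0.16 under R 4.3.3 (filterByExpr, TMM, robust quasi-likelihood F-test, two-sided, genotype as the only term), with Benjamini-Hochberg adjustment over 13215 genes. SE was taken as |log2 fold change| / √F. CPM uses TMM-scaled library sizes. On simulated data for this comparison (13215 genes) the fit recovered 36.4% of genes changed 1.25-fold, 61.2% at 1.5-fold and 78.8% at 2-fold, and 7.17% of calls were false, above the nominal level. These rates are over genes of all levels and do not give the recovery for the members. In the data the median SE was 0.10 over all tested genes and 0.052 over the members.

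The members and lists were chosen with earlier results of these data known. All called members are given in each library. So are, of the others, the most abundant and those with the largest change in each role. In the pathway lists up to 4 called genes by p were named, plus Stat2, Irf7, Irf9, Ifnb1 and Ifnar1. A few genes that this rule names are not reported here. Further members that did not pass, Ube2l6, Arih1, Pias1, Oas1b, Oas1c, Ifi27, Gvin1 and the marker genes were picked with their values in view. Exon lengths, shared 50-base stretches and overlaps come from GENCODE M21, and promoters from RefSeq (both GRCm38). Alternatives were DESeq2 1.42.0 (Wald test, size factors), limma 3.58.1 (voom), library size alone, other count filters, the replicate block, each library left out, Cd226-/- replicate 1 alone, and, chosen after seeing the data, length and GC offsets.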

Additional observations from a re-analysis of the deposited data

How the results depend on the processing

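Over 15 alternatives, 9 of the 11 members that passed did so in every one, the exceptions being Ifi204 and Ifi44, and no called member changed sign. Of the 23 that did not pass, 13 passed in none. The number of members higher and the number of all genes called (4086) stayed within 1.5 times under all 15. The number lower was 1 and moved to 5 with scaling by library size alone, 2 with DESeq2's Wald test, 2 with the length and GC correction, and 2 with Cd226-/- replicate 1 as the only library of its genotype. Leaving out each library gave 1 to 5. The median log2 fold change of the members, 0.072, moved to 0.018 with library size alone and to 0.14 with replicate 1 as the only Cd226-/- library. Leaving out each library put it between 0.036 (without WT replicate 2) and 0.092, with 0.044 without Cd226-/- replicate 1. With the replicate number as a block 2 members were lower, the second being Mx2, and 4137 genes were called against 4086. The labels tie same-numbered libraries by number alone. Their deviations from the group means correlated at 0.011, -0.013 and 0.015 over all tested genes, and not every library correlated best with its own number. Every member had at least 216 counts in each library, but Ifnb1 and Cd226 were too low to compare. The causes of these shifts were not tested.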
